A study of Mus musculus with 12 samples.

Results

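The messenger RNA of 10 genes of the circadian clock and its output was followed in mouse hearts: Per1, Per2 and Per3, Cry2, Bhlhe40, the Rev-erb genes Nr1d1 and Nr1d2, and the PAR bZIP genes Dbp, Tef and Hlf. They were taken by their single gene symbol in the array annotation, 10 of 12393 genes with such a symbol, and were represented by 18 probe sets. The hearts came from 12 C57Bl/6 mice, an inbred laboratory strain, in 4 groups of 3 with 1 array per mouse. Myocardial infarction (MI) was made by tying off the artery on the front of the left ventricle (the left anterior descending), and controls had a sham operation. Surgery fell in the sleep period between ZT1 and ZT3 or in the wake period between ZT13 and ZT15, where ZT (zeitgeber time) is the hour after the lights come on. Collection of the hearts followed 8 hours later, at ZT11 after sleep-time surgery (3 MI, 3 sham) and at ZT23 after wake-time surgery (3 MI, 3 sham). Time of surgery and time of collection therefore cannot be told apart, and every mouse had been operated on. With ZT11 and ZT23 alone, a rhythm that moves in time and one that becomes smaller cannot be told apart either. The MI samples are labelled as infarcted myocardium, and for sham hearts the region is not stated in the sources at hand, nor are the sex and age of the mice.

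The mammalian clock is a loop of transcription factors. The activators BMAL1 (gene Arntl) and CLOCK bind E-box elements and switch on the Per, Cry, Rev-erb and PAR bZIP genes, and the PER and CRY proteins then block the activators. REV-ERB proteins are nuclear receptors that repress Arntl and other genes through Rev-erb and ROR response elements, and the PAR bZIP factors DBP, TEF and HLF activate genes with D-box elements. In the rodent heart many of these genes are known to cycle. Several of those switched on through E-boxes are known to peak toward the end of the light phase, though not all at the same hour.

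The arrays were of like overall level, with a median signal of 32.7 to 34.7. The beta-actin control, read near the 3' and the 5' end of its transcript, gave a ratio of 3' over 5' signal that is higher in degraded RNA. It was 1.77 to 1.81 in ZT23 sham hearts and 2.17 to 3.31 in ZT23 MI hearts, 1.94 to 2.49 in ZT11 sham and 2.09 to 2.92 in ZT11 MI hearts. All 8 ventricular cardiomyocyte markers lay above the level filter, and their summed signal overlapped between MI and sham hearts at both times. The summed signal of 6 neutrophil markers was higher in every MI heart, at 969 to 1356 against 131 to 540.3 at ZT23 and 1108 to 2027 against 277 to 877 at ZT11. The sum of 4 atrial markers was 1715 to 14687 in ZT23 sham and 998 to 1436 in ZT23 MI hearts, with 3 called lower. That of 6 fibroblast markers was 6431 to 9010 and 4727 to 5935, again apart, with Col1a1 and Tcf21 called lower (log2 -0.997 and -0.66, adjusted p = 0.00684 and 0.0105). At ZT11 the atrial sum was 1671 to 4720 in sham and 1815 to 2949 in MI hearts. The fibroblast sum there was 6365 to 8561 and 6486 to 7728. Both sums were thus higher in every ZT11 MI heart than in any ZT23 MI heart. At ZT23 the macrophage marker Adgre1 was lower after MI (log2 -0.84, adjusted p = 0.00575). It was also lower in ZT11 sham than in ZT23 sham hearts (log2 -0.89, adjusted p = 0.0221). Cd14, of the same marker list, was higher after MI at ZT23 (log2 1.16, adjusted p = 0.00772). Of 6 endothelial markers Cdh5 alone was called, as higher (log2 0.56, adjusted p = 0.0114), and their median log2 difference was 0.19. Tek and Emcn were lower without passing (log2 -0.61 and -0.49). The 5 lymphocyte markers on the array lay below the filter on each of the 12 arrays. The part of RNA quality or of these cell types in the results below was not tested beyond the beta-actin values given.

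In sham hearts the mean signal of all 10 genes was higher at ZT11 than at ZT23, from 1.39-fold for Cry2 to 9.06-fold for Dbp as ratios of mean signals. After MI the log2 difference between times was smaller in size for all 10 genes, although the test of that change passed for none of them. At ZT11 the high signals of Per3, Tef and Hlf fell after MI. At ZT23 the low signals of Per1, Bhlhe40 and Cry2 rose after MI. The difference between times after MI was called for Nr1d2 and Dbp alone among the 10 genes.

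**Figure D1:**
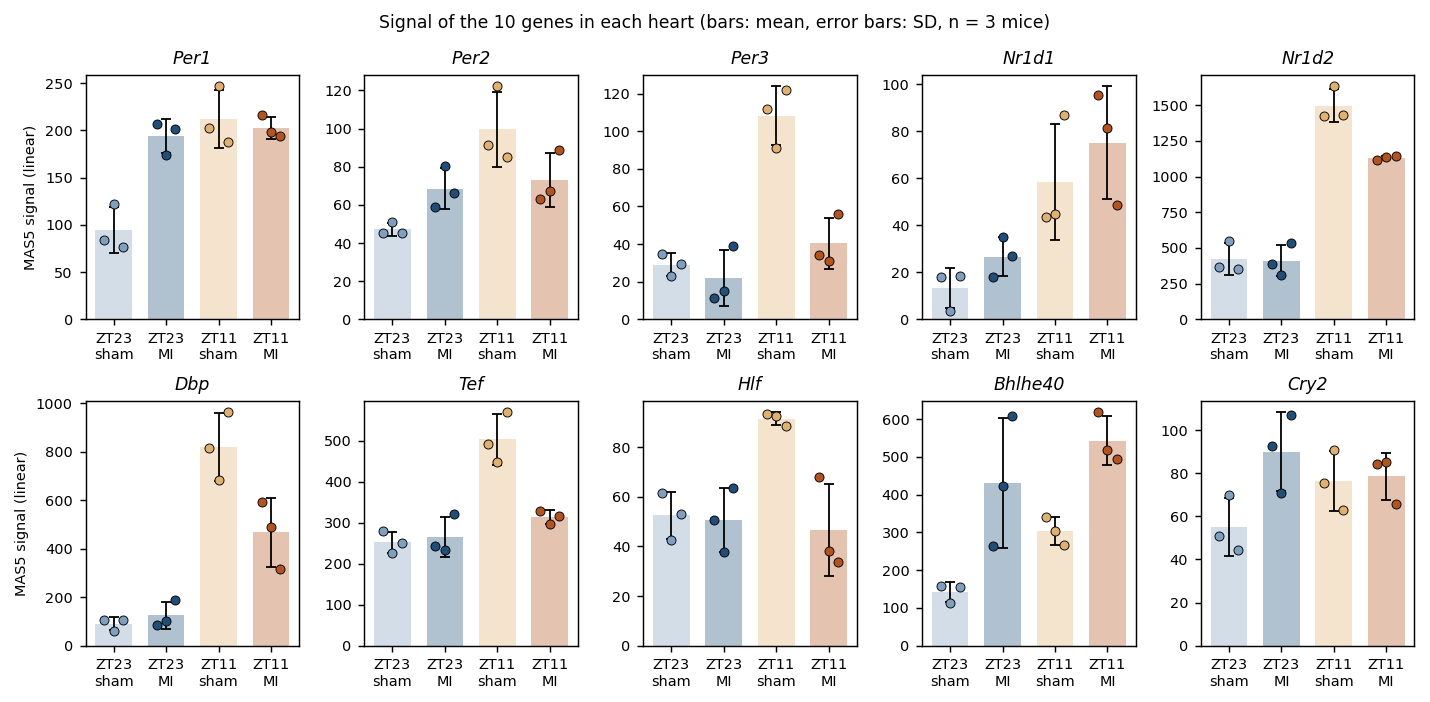
Deposited signal (linear MAS5 units, vertical axis) of the probe set tested for each of the 10 genes in the 4 groups, with a point per mouse, bars for the mean and error bars for the SD of 3 mice. In ZT11 sham hearts Dbp lay at 682 to 963, above the ZT11 MI hearts at 315 to 595 and all ZT23 hearts.

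Differences were tested with limma on log2(signal + 16) in a fit of all 8111 genes above a level filter, and called at a Benjamini-Hochberg adjusted p below 0.05 over those genes. In sham hearts 8 of the 10 genes were called higher at ZT11 and none lower, while 1.10% of all genes tested were called higher and 0.419% lower. Their median log2 difference was 1.05, against -0.02 for all genes, and the 3 ZT11 hearts lay above the 3 ZT23 hearts for 9 of the 10 and below for 0 (8.16% and 11.9% of all genes). In MI hearts 2 of 10 were called higher at ZT11 (0.0370% of all genes, and as many lower), with a median of 0.31, and the ZT11 hearts lay wholly above for 3 and below for 0 (4.41% and 6.47% of all genes). MI against sham at ZT11 gave 3 called lower and 0 higher (0.986% and 1.69% of all genes), with a median of -0.38 against -0.05 for all genes. MI signals lay wholly below sham for 5 of the 10 and wholly above for 1 (15.3% and 8.21% of all genes). MI against sham at ZT23 gave 3 called higher and 0 lower (7.80% and 10.6% of all genes), with a median of 0.39 against -0.06, and 4 genes wholly above sham and 0 below (13.7% and 21.5% of all genes). These comparisons share arrays: the ZT11 sham hearts enter the first and the third, and the ZT23 sham hearts the first and the last. The beta-actin ratio separated MI from sham hearts at ZT23 and the sham hearts of ZT11 from those of ZT23. With it in the fit, 1 of 10 genes was called for MI at ZT23, and in sham hearts the calls of Per2 and Bhlhe40 were lost and 38 genes in all were called instead of 123.

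Counts depended on single arrays. Without wake sham replicate 1 or 3 or sleep sham replicate 2, 5 of 10 genes were called in sham hearts instead of 8. For MI against sham at ZT11 the count called lower was 1 without sleep MI replicate 1 or 3 and 0 without sleep MI replicate 2 or sleep sham replicate 1 or 3, instead of 3. For MI hearts it was 1 when replicate 1 of wake MI, wake sham or sleep sham was left out, and 0 when replicate 2 of wake MI or replicate 1 or 2 of sleep MI was, instead of 2. These are tissue samples of several cell types. Fewer cells that express a gene and less RNA per cell thus cannot be told apart in any of the comparisons with MI.

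**Figure D2:**
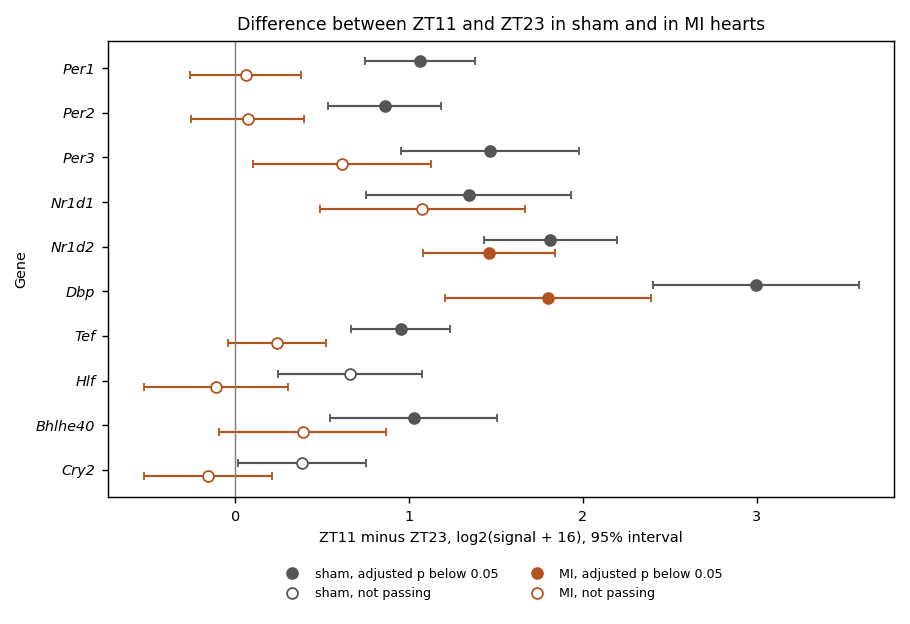
Difference between ZT11 and ZT23 (horizontal axis, log2 of signal + 16, with the 95% interval of the fit) for each gene in sham and in MI hearts, filled where the adjusted p was below 0.05. The MI value lies to the left of the sham value for all 10 genes, by 0.27 for Nr1d1 to 1.19 for Dbp.

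The Period genes code for the repressors that hold back BMAL1 and CLOCK. Per1, which is also known as an early-response gene and a target of glucocorticoids, had signals of 203, 247 and 187 in ZT11 sham hearts (replicates 1 to 3) against 84.0, 122 and 76.9 in ZT23 sham hearts. After MI it stood at 216, 198 and 194 at ZT11 and at 207, 174 and 202 at ZT23. The ZT23 sham hearts were thus low and apart from the other 9 hearts, which overlapped with each other. Per1 rose 1.93-fold after MI at ZT23 (log2 0.95, SE 0.15, adjusted p = 0.00106), a call kept in all 24 alternatives. At ZT11 the difference was log2 -0.05 (95% interval -0.37 to 0.26, adjusted p = 0.892). Between times Per1 was 2.09-fold higher at ZT11 in sham hearts (log2 1.06, adjusted p = 0.00306), and after MI the difference was 0.06 (95% interval -0.26 to 0.38, adjusted p = 0.965).

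Per2, the PER most needed for the rhythm, had signals of 91.3, 122 and 85.3 in ZT11 sham and 45.2, 51.1 and 45.4 in ZT23 sham hearts. MI hearts lay mostly between, at 63.0, 67.2 and 88.9 at ZT11 and 59.1, 80.3 and 66.3 at ZT23. The 2 MI groups overlapped, and so did MI and sham hearts at ZT11. The sham difference was called (log2 0.86, SE 0.15, adjusted p = 0.0127), but not without wake sham replicate 1 or 3 or sleep sham replicate 2 (adjusted p = 0.0574 to 0.0759). It was also lost with the mean of its 2 probe sets (log2 0.55, adjusted p = 0.0534) and with the beta-actin ratio in the fit (log2 0.81, adjusted p = 0.0656). Neither MI comparison passed, at log2 -0.37 at ZT11 (adjusted p = 0.228) and 0.41 at ZT23 (adjusted p = 0.0739), and the second passed with quantile normalization or the mean of the probe sets (adjusted p = 0.0479 and 0.0351). The other Per2 probe set lay below the level filter.

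Per3, the third Period gene, which is less needed for the central rhythm, fell at ZT11. Its signals were 112, 91.1 and 122 in ZT11 sham hearts and 34.2, 31.0 and 56.1 in ZT11 MI hearts. At ZT23 they were 34.97, 22.9 and 29.3 in sham and 11.4, 15.3 and 39.3 in MI hearts. The ZT11 sham hearts stood apart at the top, while the ZT11 MI hearts overlapped with both ZT23 groups. The mean signal at ZT11 was 62.6% lower after MI, the largest such fall among the 10 genes (log2 -1.16, SE 0.24, adjusted p = 0.0198). The call ended without sleep MI replicate 1 or 2 or sleep sham replicate 1 or 3 (log2 -1.13 to -1.04, adjusted p = 0.0721 to 0.0937). It also ended with 1 added before the log, or with the mean of the 3 Per3 probe sets, 2 of which lay below the filter (log2 -1.44 and -0.41, adjusted p = 0.0554 and 0.0503). At ZT23 the difference was -0.31 (SE 0.24, adjusted p = 0.395). The mean signals there, 29.1 in sham and 22.0 in MI hearts, lay below the array medians of 32.7 to 34.7. In sham hearts Per3 was 2.76-fold higher at ZT11 (log2 1.46, adjusted p = 0.00741), a call kept in each alternative in which Per3 was tested, and after MI it was 1.53-fold higher (log2 0.62, adjusted p = 0.689).

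The promoters of Per1 and Per3 are shown as those of the Period genes with a call for MI, Per1 at ZT23 and Per3 at ZT11. RefSeq windows of 300 bases (250 before and 50 after a start, build GRCm38.p6) were found for 8 of the 10 genes, 10 windows in all. The 250 bases before the start are printed 5′ to 3′ in the direction of the gene, at chr11:69098699-69098948 (plus strand, the first of 2 Per1 starts) and chr4:151044666-151044915 (minus strand, Per3), and capitals mark matches to the motifs searched.
Per1: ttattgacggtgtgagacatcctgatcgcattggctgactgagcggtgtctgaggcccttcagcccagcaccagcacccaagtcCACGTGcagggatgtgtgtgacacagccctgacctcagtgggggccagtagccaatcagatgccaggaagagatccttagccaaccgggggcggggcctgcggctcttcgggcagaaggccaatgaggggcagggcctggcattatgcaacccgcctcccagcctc
Per3: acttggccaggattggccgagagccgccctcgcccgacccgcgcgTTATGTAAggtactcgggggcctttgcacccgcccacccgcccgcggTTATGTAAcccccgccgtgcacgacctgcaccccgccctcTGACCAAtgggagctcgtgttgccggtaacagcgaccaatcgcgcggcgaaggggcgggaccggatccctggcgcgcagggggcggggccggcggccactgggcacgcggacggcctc
On both strands the E-box CACGTG, the variant CACGTT, the D-box TTANGTAA and the cAMP response element TGACGTCA were searched. So were the glucocorticoid response element (its common spaced palindrome) and TNGGTCA, a loose form of the Rev-erb and ROR core. N is any base, and the matches given do not overlap each other. The Per1 window held 1 E-box, beginning 166 bases before the start, and its other start held no match. The Per3 window held 2 D-boxes, beginning 205 and 158 bases before the start, and a TNGGTCA match at 118. In this match, printed as TGACCAA, N was a T where the core has A or G. It is thus a match to the loose form alone. Of all 32851 promoter windows, 7.15% held an E-box, 2.32% a D-box and 11% a TNGGTCA match. The shares were 4.68% for CACGTT, 1.79% for the cAMP element and 0.475% for the glucocorticoid element. A match describes the letters of the window and does not show that a factor binds there.

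Cry2 codes for a cryptochrome, the partner of PER in repression. Its signals were 75.6, 90.6 and 62.9 in ZT11 sham and 51.0, 70 and 44.4 in ZT23 sham hearts, which overlapped (log2 0.38, SE 0.17, adjusted p = 0.349). After MI they were 84.4, 85.2 and 66.0 at ZT11 and 92.5, 70.7 and 107 at ZT23, where all 3 MI hearts lay above the sham hearts, 1 of them barely. Cry2 rose 1.49-fold at ZT23 (log2 0.58, SE 0.17, adjusted p = 0.0317). This call was lost when replicate 1 or 3 of either ZT23 group was left out (adjusted p = 0.0728 to 0.129) with the beta-actin ratio in the fit (log2 0.47, adjusted p = 0.299), without a level filter and in a fit of the ZT23 hearts alone (adjusted p = 0.0566 and 0.0594). At ZT11 the difference was 0.04 (95% interval -0.33 to 0.40, adjusted p = 0.944).

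Bhlhe40, or Dec1, codes for a basic helix-loop-helix repressor that competes for E-boxes and is also induced by stress and low oxygen. Its ratio of MI to sham mean signals was the highest of the 10 genes at both times, with signals of 617, 518 and 495 against 342, 305 and 268 at ZT11 and at 265, 422 and 609 against 158, 112 and 156 at ZT23. The MI hearts lay above the sham hearts at both times, and the 2 MI groups overlapped. The rise at ZT23 was 2.71-fold (log2 1.44, SE 0.22, adjusted p = 0.00104), and with the beta-actin ratio in the fit it was log2 1.08 (adjusted p = 0.0624). At ZT11 the difference did not pass (log2 0.80, SE 0.22, adjusted p = 0.0750), but it passed in a fit of the ZT11 hearts alone and without wake MI replicate 1 or 3 (adjusted p = 0.0115, 0.0209 and 0.0222). In sham hearts Bhlhe40 was 2.04-fold higher at ZT11 (log2 1.03, adjusted p = 0.0364). That call was lost for 8 of the 12 arrays left out, all 3 wake sham replicates, sleep sham replicates 1 and 2, wake MI replicate 2 and sleep MI replicates 2 and 3 (adjusted p = 0.0528 to 0.153), with the replicate number as a block (adjusted p = 0.0574) and with the beta-actin ratio in the fit (log2 0.83, adjusted p = 0.152). It also ended with 64 added before the log, without a level filter and with the mean of probe sets, at lower adjusted p than with the beta-actin ratio.

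The Rev-erb genes had the largest MI differences between times relative to sham, 80.5% for Nr1d2 and 80.1% for Nr1d1 on the log2 scale. The Nr1d1 share depends on the constant added before the log, since its signals were low. With 1 added its differences were 1.45 in MI and 2.25 in sham hearts. Nr1d2 (Rev-erb beta) had signals of 1423, 1633 and 1434 in ZT11 sham hearts and 1119, 1134 and 1145 in ZT11 MI hearts. At ZT23 it stood at 364, 549 and 354 in sham and at 387, 314 and 532 in MI hearts. Both ZT11 groups lay above both ZT23 groups, and the 3 ZT11 MI hearts lay close together below the sham hearts. Nr1d2 was 3.51-fold higher at ZT11 in sham hearts (log2 1.81, SE 0.18, adjusted p = 0.000155) and 2.75-fold after MI (log2 1.46, SE 0.18, adjusted p = 0.00711). The second call was lost when replicate 2 of the wake MI or replicate 1 or 2 of the sleep MI group was left out (adjusted p = 0.0501 to 0.0590) and with the mean of its 2 probe sets, of which 1 lay below the filter (log2 0.90, adjusted p = 0.136). The drop after MI at ZT11 did not pass (log2 -0.39, SE 0.18, adjusted p = 0.275), and at ZT23 the difference was -0.04 (95% interval -0.42 to 0.34, adjusted p = 0.897).

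Nr1d1 (Rev-erb alpha), the main repressor of Arntl, gave low signals that varied between mice. They were 43.4, 44.9 and 86.8 in ZT11 sham hearts, 95.6, 81.2 and 48.7 in ZT11 MI hearts, 17.9, 3.59 and 18.4 in ZT23 sham hearts and 18.1, 35.1 and 27.1 in ZT23 MI hearts. All ZT11 hearts lay above all ZT23 hearts, and MI and sham overlapped at each time. After MI at ZT11 the difference was log2 0.31 (SE 0.27, adjusted p = 0.618). In sham hearts it was higher at ZT11 (log2 1.34, SE 0.27, adjusted p = 0.0277), a call lost when any 1 of the 6 sham arrays was left out (adjusted p = 0.0538 to 0.0759), without a level filter and in a fit of the sham hearts alone (adjusted p = 0.0557 and 0.0650). After MI the difference was 1.08 with the same SE (adjusted p = 0.487). The ZT23 sham mean of 13.3 lies below the 16 added before the log, so these log2 values understate the ratio of mean signals, 4.39 in sham and 2.81 in MI hearts.

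**Figure D3:**
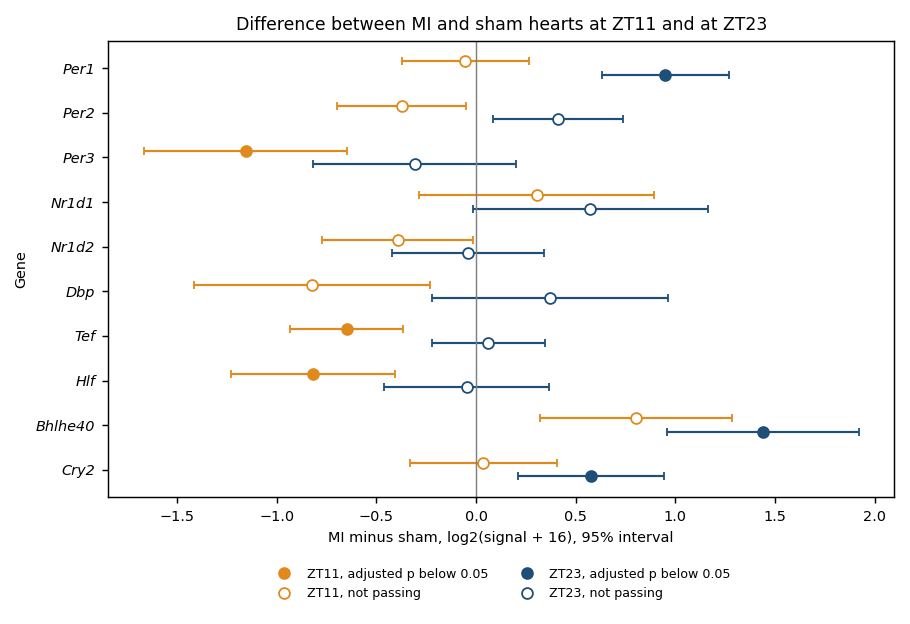
Difference between MI and sham hearts (horizontal axis, log2 of signal + 16, with the 95% interval of the fit) for each gene at ZT11 and at ZT23, filled where the adjusted p was below 0.05. Per3, Tef and Hlf were called lower at ZT11, and Per1, Bhlhe40 and Cry2 higher at ZT23.

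The PAR bZIP genes carry the rhythm to output genes. Dbp, with the largest sham difference between times of the 10 genes, had signals of 814, 682 and 963 in ZT11 sham and 105, 59.5 and 107 in ZT23 sham hearts. After MI they were 595, 492 and 315 at ZT11 and 84.0, 102 and 189.9 at ZT23. The order was ZT11 sham, ZT11 MI, then both ZT23 groups, which overlapped. Dbp was 7.96-fold higher at ZT11 in sham hearts (log2 2.99, SE 0.28, adjusted p = 9.70e-05) and 3.48-fold after MI (log2 1.80, SE 0.28, adjusted p = 0.0283). The second call was lost when replicate 1 of any group, or replicate 2 of either MI group, was left out (log2 1.59 to 1.80, adjusted p = 0.0523 to 0.192), and with the replicate number as a block (adjusted p = 0.0523). Another 5 settings also ended it, namely no level filter, the mean of probe sets, no intensity trend, the MI hearts alone and the beta-actin ratio (adjusted p = 0.0501 to 0.0922). The mean at ZT11 was 43.0% lower after MI, with the 2 groups apart, but the difference did not pass (log2 -0.82, SE 0.28, 95% interval -1.41 to -0.23, adjusted p = 0.140). The other Dbp probe set gave the same order, with means of 533 ± 96.5 in ZT11 sham and 282 ± 85.6 in ZT11 MI hearts (SD, n = 3 each; log2 -0.91, adjusted p = 0.0715).

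Tef, which codes for thyrotroph embryonic factor, had signals of 493, 447 and 569 in ZT11 sham and 329.7, 296 and 315 in ZT11 MI hearts. At ZT23 it had 279, 227 and 249.9 in sham and 243, 233 and 321 in MI hearts. The ZT11 sham hearts stood apart, and the other 3 groups overlapped with their neighbours. Tef fell 1.57-fold after MI at ZT11 (log2 -0.65, SE 0.13, adjusted p = 0.0192). The call ended without any of the 3 sleep MI replicates or without sleep sham replicate 1 or 3 (log2 -0.68 to -0.56, adjusted p = 0.0608 to 0.0929), and with the mean of its 3 probe sets, 2 of them below the filter (log2 -0.40, adjusted p = 0.0556). At ZT23 the difference was 0.06 (95% interval -0.22 to 0.35, adjusted p = 0.782). Between times Tef was 1.93-fold higher at ZT11 in sham hearts (log2 0.95, adjusted p = 0.00306) and 1.18-fold after MI (log2 0.24, adjusted p = 0.816).

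Hlf, for hepatic leukaemia factor, had signals of 93.2, 92.7 and 88.7 in ZT11 sham hearts and 67.8, 38.3 and 33.8 in ZT11 MI hearts. The ZT23 values were 61.6, 42.7 and 53.1 in sham and 50.5, 37.9 and 63.7 in MI hearts. Again the ZT11 sham hearts stood apart and the other 9 hearts overlapped. Hlf fell 1.76-fold after MI at ZT11 (log2 -0.82, SE 0.19, adjusted p = 0.0385), and in the other Hlf probe set 2.12-fold (log2 -1.09, adjusted p = 0.0106, in the fit of all probe sets). The first call ended without sleep MI replicate 2 or 3, any sleep sham replicate or wake sham replicate 3 (adjusted p = 0.0535 to 0.136). It also ended without a level filter, in a fit of the ZT11 hearts alone and with the beta-actin ratio in the fit (adjusted p = 0.0536 to 0.0759). At ZT23 the difference was -0.05 (95% interval -0.46 to 0.37, adjusted p = 0.893). The sham difference between times did not pass in the first probe set (log2 0.66, adjusted p = 0.126) and passed in the other (log2 0.90, adjusted p = 0.0384).

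The promoters of Tef and Hlf are shown as those of the PAR bZIP genes called lower at ZT11 after MI. The 250 bases before the start lie at chr15:81811164-81811413 (plus strand, the second of 2 Tef starts) and chr11:90390918-90391167 (minus strand, Hlf).
Tef: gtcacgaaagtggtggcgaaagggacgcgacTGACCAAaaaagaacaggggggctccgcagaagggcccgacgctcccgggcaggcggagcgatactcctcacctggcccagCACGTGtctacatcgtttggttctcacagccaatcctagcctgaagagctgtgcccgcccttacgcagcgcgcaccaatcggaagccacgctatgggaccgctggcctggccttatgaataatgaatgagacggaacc
Hlf: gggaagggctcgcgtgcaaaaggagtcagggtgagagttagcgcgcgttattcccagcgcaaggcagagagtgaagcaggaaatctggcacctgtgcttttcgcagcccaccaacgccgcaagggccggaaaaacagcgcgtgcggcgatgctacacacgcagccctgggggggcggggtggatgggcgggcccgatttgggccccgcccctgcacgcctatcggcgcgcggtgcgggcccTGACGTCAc
Both Tef windows held 1 E-box, in the printed one beginning 138 bases before the start and in the other at 127. The printed Tef window also held a TNGGTCA match at 219 bases, again with T at N. The Hlf window held a cAMP response element 9 bases before the start. The windows of Nr1d1 and Cry2 each held a CACGTT match, at 28 and 166 bases. That of Cry2 also held a TNGGTCA match at 133, with T at N. The windows of Dbp and Nr1d2 held no match, which says only that these letters are not in this stretch.

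Whether MI changed the difference between times was tested directly, as the ZT11 minus ZT23 difference in MI hearts minus that in sham hearts. The value was below 0 for all 10 genes, from -0.27 for Nr1d1 to -1.19 for Dbp, with a median of -0.74 against 0.01 over all genes, of which 49.0% were below 0. The sham difference enters this value with a minus sign, and the 10 genes were chosen with earlier results of these data known. Their median sham difference was 1.05 against -0.02 for all genes, so all genes are not a like baseline here. None of the 10 passed the adjustment, and limma called 0 of 8111 genes (0.00%), the lowest adjusted p being 0.0516. At an unadjusted p below 0.05 there were 7 of the 10 genes and 848 of all genes (10.5%). For Per1 the value was -1.004 (SE 0.21, 95% interval -1.45 to -0.55, adjusted p = 0.133), and without wake sham replicate 2 it was called (log2 -1.18, adjusted p = 0.0155). For Per2 and Tef it was -0.79 and -0.71 (SE 0.22 and 0.19, adjusted p = 0.222 for both), and for Dbp -1.19 (SE 0.39, adjusted p = 0.326). Expressed as a share of the sham difference on the log2 scale, the MI difference was 60.1% for Dbp, 42.0% for Per3, 37.9% for Bhlhe40, 25.3% for Tef, 8.28% for Per2 and 5.62% for Per1, and for Hlf and Cry2 it had the opposite sign. The signs under the other settings held for 8 of the 10 genes. The value of Nr1d1 was 0.00 without wake sham replicate 2, and that of Nr1d2 was 0.03 with the mean of its probe sets.

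Across the 12 hearts the 10 genes did not move as one. Pearson's r between pairs of genes ran from -0.04 to 0.95 with a median of 0.60 (45 pairs, log2 values), as a description over hearts that share group and array. Per3 and Tef were the most alike (r = 0.95), followed by Nr1d2 and Dbp (r = 0.92) and Dbp and Tef (r = 0.90). Hlf and Bhlhe40 (r = -0.04) and Per3 and Cry2 (r = -0.03) were the least alike. Among all 8111 genes, the gene most like Dbp was Nr1d2, followed by Tcap, a Z-disc protein gene (r = 0.91), and the gene most like Tef was Per3. Tns2 (r = 0.96) was most like Per1, Gdap10 (r = 0.93) most like Per2, Retnla (r = 0.96) most like Nr1d1, Runx1t1 (r = 0.88) most like Hlf, Midn (r = 0.94) most like Bhlhe40 and S1pr1 (r = 0.92) most like Cry2.

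The activators are known to oppose these genes in phase, and Arntl was called lower at ZT11 in sham hearts. It was the 1 of 3 activators tested (Arntl, Clock and Npas2) to pass there, against 0.419% of all genes. In MI hearts and for MI at ZT11 0 of 3 passed, and 1 fell after MI at ZT23, where 10.6% of all genes were called lower. Their median between times was -0.62 in sham and -0.56 in MI hearts, against -0.02 and -0.01 for all genes. Arntl (Bmal1) had a signal of 25.2 ± 6.09 at ZT11 against 115 ± 17.6 at ZT23 in sham hearts, and of 31.2 ± 4.23 against 94.9 ± 33.1 after MI (SD, n = 3 each). The sham difference was called (log2 -1.67, adjusted p = 0.00124), and the MI difference was -1.19 (adjusted p = 0.0572). Clock fell after MI at ZT23 (log2 -0.44, SE 0.14, adjusted p = 0.0400), from 154 ± 17.9 to 109 ± 6.51 (SD, n = 3 each), to near its ZT11 levels of 101 ± 20.5 in sham and 96.6 ± 10.6 in MI hearts. Npas2, a relative of Clock, was at -0.62 between times in sham and -0.56 in MI hearts (adjusted p = 0.202 and 0.689). Arntl2 lay below the filter.

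Of 6 tested genes with Rev-erb and ROR response elements or coding for RORs (a list that holds the 3 activators too), 2 were lower at ZT11 in sham hearts and 1 in MI hearts. At ZT11 1 rose after MI, and at ZT23 2 rose and 1 fell. The shares of all genes were 0.419% and 0.0370% lower between times, 1.69% higher at ZT11, and 7.80% higher and 10.6% lower at ZT23. Nfil3, or E4bp4, codes for a bZIP repressor that competes with the PAR bZIP factors for D-boxes, and it rose after MI at both times. Its mean signal was 267 ± 35.4 after MI against 78.1 ± 21.0 in sham hearts at ZT11 and 438 ± 12.8 against 220.3 ± 12.4 at ZT23 (SD, n = 3 each). The rises were log2 1.61 (SE 0.15, adjusted p = 4.31e-05) and 0.94 (SE 0.15, adjusted p = 0.00124). In the same ZT11 hearts the PAR bZIP gene Tef stood at 314 ± 16.7 after MI against 503 ± 61.5 in sham hearts (SD, n = 3 each). At ZT23, where Nfil3 rose too, Tef stood at 266 ± 48.1 after MI against 252 ± 25.9 in sham hearts (log2 0.06, adjusted p = 0.782). A link between Nfil3 and Tef was not tested. Cry1, the other cryptochrome gene, was lower at ZT11 in MI hearts, at 43.5 ± 1.21 against 113 ± 7.98 at ZT23 (log2 -1.11, SE 0.14, adjusted p = 0.00711). It rose after MI at ZT23 (log2 0.46, adjusted p = 0.0351), as Cry2 did, and its sham difference did not pass (log2 -0.55, adjusted p = 0.0769). Of the other repressors on the array, Timeless did not pass in any of the 5 comparisons (log2 0.51 between times in sham hearts, adjusted p = 0.132) and Bhlhe41 lay below the filter. Of 6 enzymes that modify or degrade PER and CRY, 1 was called in 1 comparison, the deubiquitinase gene Usp7, which rose after MI at ZT23 (log2 0.39, adjusted p = 0.00941; 7.80% of all genes rose).

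**Figure D4:**
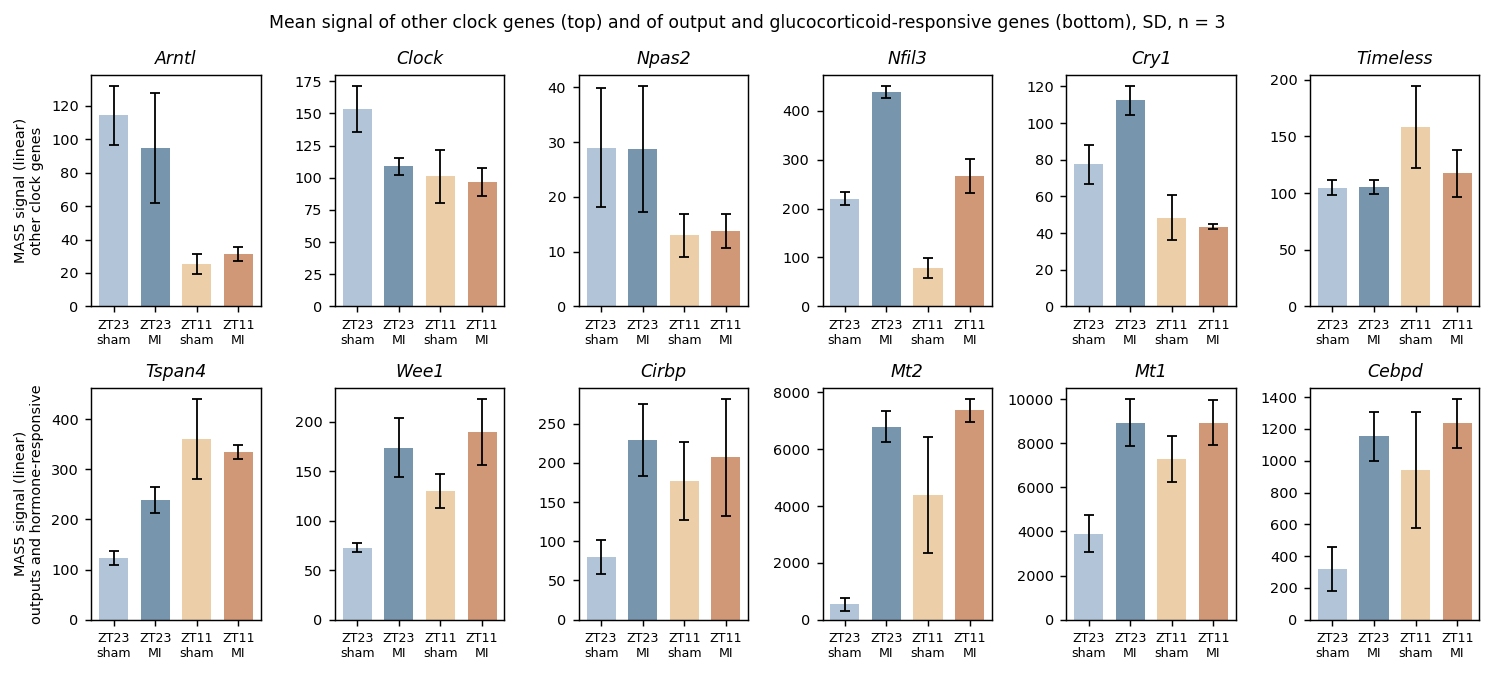
Mean deposited signal (linear MAS5 units, vertical axis; error bars are the SD of 3 mice) in the 4 groups of 6 other clock genes (top) and of 3 clock-controlled and 3 glucocorticoid-responsive genes (bottom). Arntl is high at ZT23 in both sham (115) and MI hearts (94.9), while Wee1 and Mt2 are lowest in ZT23 sham hearts.

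Among 7 clock-controlled output genes tested, 2 were higher at ZT11 in sham hearts, 0 in MI hearts, 0 passed for MI at ZT11 and 3 rose after MI at ZT23. Of all genes 1.10% were called higher in sham and 0.0370% in MI hearts, 1.69% higher and 0.986% lower for MI at ZT11, and 7.80% higher at ZT23. The list's medians were 0.71, 0.12, -0.18 and 0.21 in these 4 comparisons, against -0.02, -0.01, -0.05 and -0.06 for all genes. Tspan4, a tetraspanin gene, was at 361 ± 79.6 in ZT11 sham and 124 ± 14.1 in ZT23 sham hearts (log2 1.41, adjusted p = 0.000285), and at 335 ± 13.5 and 239 ± 26.1 after MI (SD, n = 3 each). Wee1, a kinase that holds back mitosis and has E-boxes in its promoter, rose after MI at ZT23 from 72.8 ± 4.82 to 174 ± 29.8 (SD, n = 3 each; log2 1.09, SE 0.15, adjusted p = 0.000454). Cirbp, a cold-inducible RNA-binding protein gene, rose at ZT23 as well (log2 1.36, adjusted p = 0.00403).

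Per1 is known to respond to glucocorticoids and to CREB, so genes of both kinds were set beside it. Of 12 glucocorticoid-responsive genes, 6 were higher at ZT11 in sham hearts and 0 in MI hearts, 10 rose after MI at ZT23, and at ZT11 0 rose and 1 fell. The shares of all genes were 1.10% and 0.0370% higher between times, 7.80% higher at ZT23, and 1.69% higher and 0.986% lower at ZT11. The list's medians were 0.96, 0.09, 1.28 and 0.43 for sham between times, MI between times, MI at ZT23 and MI at ZT11, against -0.02, -0.01, -0.06 and -0.05 for all genes. The metallothionein gene Mt2 was at 547 ± 233 in ZT23 sham hearts and 4402 ± 2042 in ZT11 sham hearts, and after MI at 6792 ± 540.1 and 7372 ± 401 (SD, n = 3 each). Mt1 and Cebpd, a transcription factor gene of acute inflammation, were also higher at ZT11 in sham hearts (log2 0.91 and 1.51, adjusted p = 0.00815 and 0.0211). Tsc22d3, which codes for the glucocorticoid-induced leucine zipper, was the gene that fell at ZT11 (log2 -0.88, adjusted p = 0.0369). Of 10 CREB-responsive and immediate early genes, 7 rose after MI at ZT11 and 9 at ZT23, and 1 was higher at ZT11 in sham hearts (1.69%, 7.80% and 1.10% of all genes). Btg2 rose at both times, by log2 1.74 and 2.57 (adjusted p = 2.93e-05 and 7.33e-07), whereas Per1 was called at ZT23 and not at ZT11. Whether the 2 effects on Per1 differ is the test of the difference given above. The part of either response in the levels of the clock genes was not tested.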

How the data were processed

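Heart RNA of 12 mice was hybridised to 12 single-colour Affymetrix arrays. Each deposited value is a linear intensity of a probe set, which per the submitters' processing notes came from MAS5. Version, settings and detection calls are not stated there. With the outer 2% on both sides trimmed, every array had a mean of 150, so no scaling was added. Of 22690 probe sets, 64 controls were left out, and 20380 had 1 gene symbol, 691 several and 1555 none. The probe set of highest mean stood for a gene, and 8111 genes with a mean of at least 17.3, the 40th percentile over probe sets, were tested. All 10 genes passed. Of their 18 probe sets, 2 more passed and were tested in a fit of all probe sets, and 6 lay below, at 0.243 to 25.1, and were not tested.

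Groups were compared with limma 3.58.1 (R 4.3.3) on log2(signal + 16), 1 mean per group over 12 arrays with an intensity trend and two-sided tests (8 residual degrees of freedom, 13.9 with the prior), adjusted by Benjamini-Hochberg within each comparison. Fold changes are on that scale. Signals are deposited values, and no cell of the table was imputed. The 3 arrays a group limit precision, and 3 against 3 cannot give a permutation p below 0.1, so none was run. Batches and scan dates are not stated in the sources at hand.

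The 10 genes, the lists and the tests were chosen with earlier results of these data known. Named were all 10 genes, each measured activator and other repressor, up to 3 called genes of each other list per direction with the smallest adjusted p, and the genes with the highest Pearson's r to each member. In simulated data for these 8111 genes, the test at ZT11 recovered 94% of 100 genes given a log2 change of 1 and 100% of 100 given 2, and the test of the difference between effects 76% and 98%. Unchanged genes made up 4.90% and 6.45% of the calls, which were made at an adjusted p below 0.05. These shares belong to the simulated data, whose noise was independent between genes and whose changes were put in the ZT11 MI group alone. Recovery in the measured hearts, where the test of the difference between effects called 0 of 8111 genes, was not tested. Alternatives were other constants, filters, scalings, probe set rules and variance models, the compared groups alone, the beta-actin ratio, a replicate block and each array left out. Promoter sequences are RefSeq's (GRCm38.p6). Figures were drawn with matplotlib 3.10.9.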

Additional observations from a re-analysis of the deposited data

How the results depend on the processing

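Of 50 values (10 genes in 5 comparisons), 16 were called, and 6 of these kept their call in all of the alternatives in which the gene was tested. These were the sham difference of Per1, Per3, Nr1d2, Dbp and Tef and the rise of Per1 at ZT23. Over 1175 gene values under 24 alternatives, 1079 kept direction and call, 71 lost the call, 6 gained it and 19 changed sign, none of the last being called. Quantile normalization and median centring changed no sign among the 50 values. An array that is not in the comparison still enters the estimate of the spread, which uses all groups. The cause of lost or gained calls was not tested. With 3 arrays a group, differences of low signals such as those of Nr1d1 and Per3 at ZT23 are poorly fixed. Leaving out an array that leaves 2 in a group takes its spread from all groups.

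In sham hearts, genes called in all numbered 75 without a level filter, 72 with the mean of probe sets, 65 with the compared groups alone and 38 with the beta-actin covariate instead of 123, and 30 to 229 with 1 array left out, of the 10 genes 5 to 8. In MI hearts, 1 of the 10 was called without a filter, without the intensity trend, with the compared groups alone and with the beta-actin covariate, and 0 with the mean of probe sets, instead of 2. There all genes called numbered 2 without a filter and with the mean of probe sets, and 3 without the trend and with the compared groups alone, instead of 6, and 0 to 7 with 1 array left out, of the 10 genes 0 to 2. For MI against sham at ZT11, 1 was called lower with the 60th percentile filter, which left out Per3, Nr1d1 and Hlf, and with the mean of probe sets, and 1 higher with the compared groups alone. There 140 genes were called without a filter instead of 217, and 57 to 290 with 1 array left out, of the 10 genes 0 to 3 lower and 0 to 1 higher. For MI against sham at ZT23 the beta-actin covariate gave 1 of the 10 and 265 genes instead of 3 and 1496, and leaving out arrays 2 to 3 and 838 to 1521. For the change of the difference by MI, 1 gene was called with the 60th percentile filter and with median centring, 2 with quantile normalization, and 0 to 36 with 1 array left out, of the 10 genes 0 to 1 lower.

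Replicate numbers did not pair the samples: of 18 pairs of the same number, 5 had correlated deviations above 0.1 (r = -0.17 to 0.25), and 2 of 12 samples correlated best with their own number. With the replicate block, 1 of the 10 and 3 genes in all were called in MI hearts, and 3 genes for the change of the difference. The block changed no other count of calls by over 1.5 times.

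Signs turned for small differences. That of Tef for MI at ZT23 was -0.012 with the mean of probe sets and -0.11 with the beta-actin covariate (-0.074 to 0.14 without single arrays), and that of Nr1d2 for the change of the difference was 0.032 with the mean of probe sets. Without single arrays, between times in MI hearts Per1 ran from -0.012 to 0.10, Per2 from -0.053 to 0.17 and Hlf from -0.34 to 0.035. For MI at ZT11 Per1 ran from -0.13 to 0.051 and Cry2 from -0.071 to 0.15, for MI at ZT23 Nr1d2 from -0.24 to 0.16 and Hlf from -0.18 to 0.10, and for the change of the difference Nr1d1 from -0.43 to 0.00046.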

Other observations

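Arrays of a group differed in how many of the 10 genes were highest or lowest on them. These counts were not set beside those of all genes. Among ZT23 MI hearts, replicate 3 had the highest signal for 7 of the 10 genes and the lowest for 0, with a median deviation from its group of log2 0.27. It also had the highest beta-actin ratio of the 12 arrays, 3.31. Among ZT11 MI hearts, replicate 1 was highest for 6 of the 10, and replicate 3 lowest for 6 and highest for 3 (median deviation -0.09), with a beta-actin ratio of 2.92. The Dbp signal of that replicate 3 heart was 315 against 595 and 492 in the other ZT11 MI hearts, while its Per3 signal, 56.1, was the highest of the 3.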
